A study of Bos taurus with 6 samples.

Results

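Skeletal muscle breaks down its contractile proteins mainly by tagging them with ubiquitin for the proteasome, and a small set of ubiquitin ligases chooses what is tagged. The genes described here are 7 such ligases, TRIM63, TRIM54, TRIM55, TRIM32, FBXO32, FBXO40 and MUL1, and 3 FOXO transcription factors, FOXO1, FOXO3 and FOXO4. They were chosen by name and not by their values, though with earlier results of these data known. Each is 1 row among the 21972 genes measured. FPKM are reads scaled to gene length and to the reads counted to genes. All 10 lie among the 9990 genes with a mean of at least 1 FPKM, to which the breed comparison was restricted. In the files they carry the Ensembl identifiers ENSBTAG00000005085 (TRIM63), ENSBTAG00000018267 (TRIM54), ENSBTAG00000021009 (TRIM55), ENSBTAG00000017155 (TRIM32), ENSBTAG00000016194 (FBXO32), ENSBTAG00000014508 (FBXO40), ENSBTAG00000020850 (MUL1), ENSBTAG00000044105 (FOXO1), ENSBTAG00000011234 (FOXO3) and ENSBTAG00000004879 (FOXO4).

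Longissimus muscle was sampled from 3 Japanese black (Wagyu) cattle, WC616, WC719 and WC921, a breed kept for heavily marbled beef, and from 3 Chinese Red Steppes cattle, RC4, RC5 and RC6, which marble less. All 6 were males aged 28 months, and each gave 1 poly(A) RNA library. The 3 males of each breed had the same sire and came from 1 farm, so the effects of breed, of sire and of farm cannot be told apart, and paternal brothers stand here for a breed. Where the values of 3 libraries are listed, they follow the order WC616, WC719, WC921 within Wagyu and RC4, RC5, RC6 within Chinese Red Steppes. The libraries hold RNA of whole muscle, in which fewer cells of a type and less RNA per cell cannot be told apart.

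In mammals, insulin and IGF1 act through PI3K and AKT, and AKT phosphorylates the FOXO factors and keeps them in the cytoplasm. When that signal is low, as in fasting, disuse or glucocorticoid excess, FOXO factors enter the nucleus and switch on the ligases FBXO32 and TRIM63 together with autophagy genes, and muscle protein is lost. Because FOXO activity is set largely by phosphorylation and location, the mRNA of a FOXO gene does not measure it.

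Between 15859797 and 16197141 reads per library were counted to genes for Wagyu, and between 15438095 and 16058261 for Chinese Red Steppes. All 8 defining skeletal muscle markers examined were detected in every library and summed to between 70418.6 and 73364.6 FPKM in Wagyu and between 75790 and 85421.3 FPKM in Chinese Red Steppes. In the Wagyu libraries the 9 slow fibre markers summed to between 36732.5 and 49026.5 FPKM and the 9 fast fibre markers to between 63761.4 and 79377.3 FPKM. Among Chinese Red Steppes RC6 stood apart. Its slow fibre markers summed to 81090.7 FPKM, against 25946 and 30083 FPKM in RC5 and RC4, its fast fibre markers to 41716.9 FPKM, against 92152.8 and 82953.3 FPKM, and the 13 mitochondrial genes took 10.4% of its reads, against 4.79 to 5.66% in Wagyu libraries and 5.52 and 5.79% in RC5 and RC4. The part of fibre type in the values below was not tested.

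Of the 10 genes, none passed the breed comparison with limma at an adjusted p of 0.05, a threshold that 2 of the 9990 genes, 0.02%, passed. TRIM54 and FBXO32 were higher and TRIM32 was lower in Wagyu at an unadjusted p under 0.05, where 8.64% of all genes tested were higher and 5.87% were lower. In 3 genes every Wagyu library lay above every Chinese Red Steppes library (TRIM54, TRIM55 and FBXO32), as in 11.4% of all genes tested, and in 1 gene, TRIM32, every Wagyu library lay below, as in 9.16%. With DESeq2 on reads recovered from the FPKM values, 1 of the 10, TRIM32, was past the threshold, as were 2.0% of the 11875 genes with an adjusted p. With edgeR on the same reads none of the 10 was, and 0.0685% of 11672 genes were. The median log2 difference, Wagyu minus Chinese Red Steppes on the log2(FPKM + 1) scale, was 0.40 over the 10 genes and 0.03 over all genes tested, with 6 of the 10 and 5362 of the 9990 above 0. Over the 7 ligases the median was 0.41, and 0.23 without WC921. Over the 3 FOXO genes it was -0.10, and 0.46 with all 3 above 0 without WC616. The median over the 10 was 0.13 without WC921, 0.17 without RC4 and 0.11 without RC6.

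**Figure D1:**
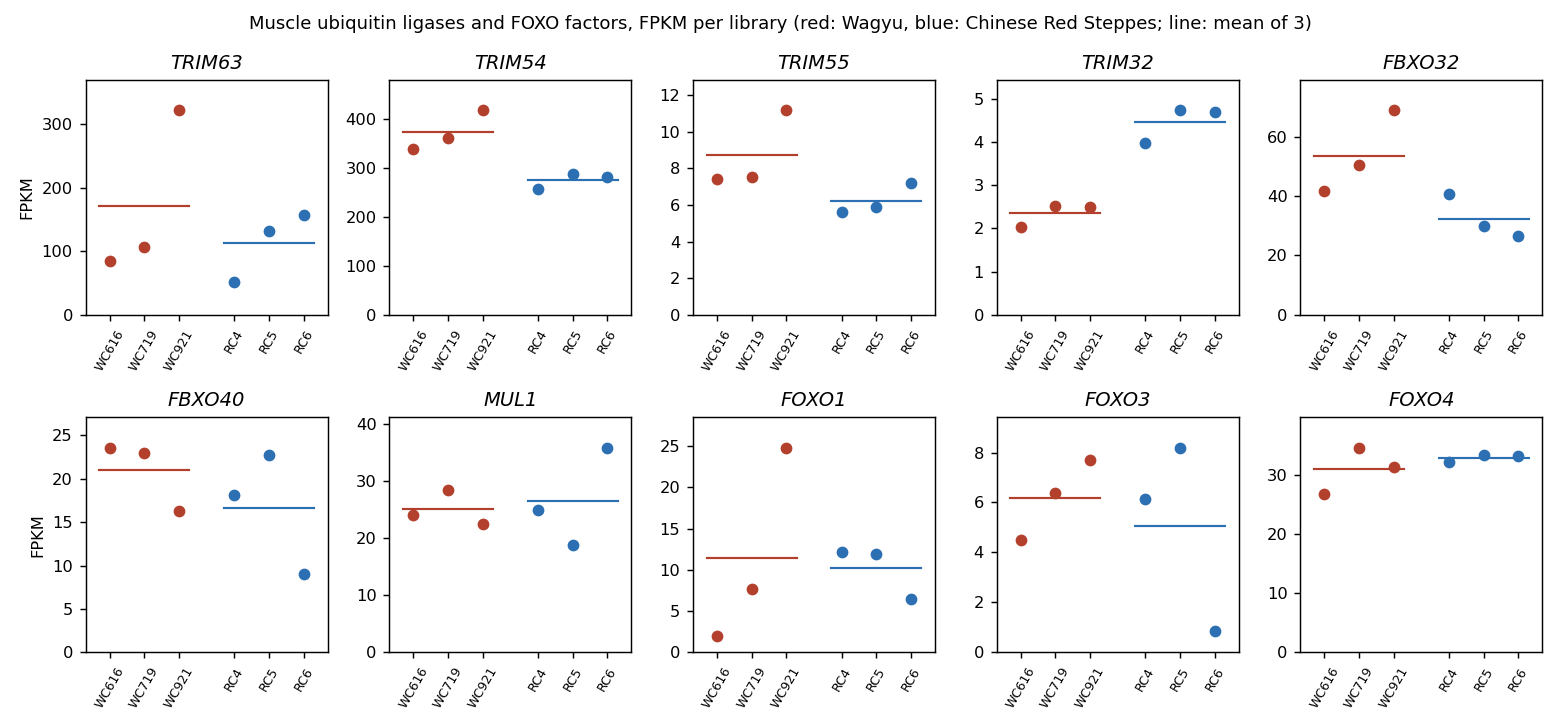
FPKM of the 7 ligases and 3 FOXO genes in each library, with Wagyu in red on the left and Chinese Red Steppes in blue on the right of each panel. Each point is 1 library, each line the mean of 3 libraries, and each vertical axis starts at 0 with its own scale. TRIM54, TRIM55 and FBXO32 points lie higher in Wagyu and TRIM32 points lower, without overlap, whereas FOXO1 ranges from 1.95 to 24.8 FPKM within Wagyu.

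FBXO32 encodes atrogin-1, the F-box protein that brings substrates such as the regulator MyoD and the translation factor eIF3f to an SCF ubiquitin ligase. It had 41.6, 50.5 and 68.9 FPKM in Wagyu, against 40.6, 30.0 and 26.4 FPKM in Chinese Red Steppes. The lowest Wagyu library and the highest Chinese Red Steppes library were nearly level, so the separation of the breeds rests on a narrow gap. The mean was 53.7 ± 13.9 FPKM in Wagyu and 32.3 ± 7.36 FPKM in Chinese Red Steppes (n = 3 each, SD), a ratio of 1.66 and the largest ratio above 1 among the 10 genes. On the log2 scale the difference was 0.71 (SE 0.23, 95% interval 0.18 to 1.24, limma adjusted p = 0.273). Over 17 alternative settings it stayed between 0.51 and 0.88, with adjusted p-values from 0.162 to 0.590. RC6 was the lowest library, and without it the difference was 0.58.

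TRIM63 encodes MuRF1, a RING-finger ligase of the sarcomere that ubiquitinates thick filament proteins. It had 85.1, 106 and 322 FPKM in Wagyu, against 52.3, 132 and 157 FPKM in Chinese Red Steppes. The breeds overlapped, and the Wagyu mean of 171 ± 131 FPKM, against 114 ± 54.7 FPKM in Chinese Red Steppes (n = 3 each, SD), included 1 library, WC921, far above the other 5. The log2 difference was 0.47 (SE 0.56, 95% interval -0.84 to 1.78, limma adjusted p = 0.735), and it was -0.11 without WC921 and -0.01 without RC4. TRIM63 varied within both breeds: its SD on the log2 scale was 1.02 among Wagyu and 0.843 among Chinese Red Steppes, above that of 99.2% and 96.7% of the genes tested.

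FBXO32 and TRIM63 are the classic pair of atrophy genes, and FOXO factors act on both. Their levels did not keep a fixed ratio from animal to animal. The FPKM of FBXO32 divided by that of TRIM63 was 0.489, 0.475 and 0.214 in Wagyu, against 0.775, 0.227 and 0.168 in Chinese Red Steppes. Low and high ratios thus occurred in both breeds. The mean log2 ratio was -1.44 ± 0.677 in Wagyu and -1.69 ± 1.17 in Chinese Red Steppes (n = 3 each, SD), a difference of 0.25 with a two-sided exact permutation p = 0.9, where the smallest p possible with 3 against 3 is 0.1. Without RC6 this difference was -0.19.

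The other muscle RING-finger proteins, which associate with TRIM63, varied less. TRIM54, which encodes MuRF3 and binds microtubules and the Z-disc region, had 338, 362 and 417 FPKM in Wagyu, against 256, 287 and 282 FPKM in Chinese Red Steppes. All Wagyu libraries were higher, and libraries of a breed lay close together, with the highest only 1.23 times the lowest in Wagyu and 1.12 times in Chinese Red Steppes. The means were 372 ± 40.6 and 275 ± 16.6 FPKM in Wagyu and Chinese Red Steppes (n = 3 each, SD), a ratio of 1.35, and the log2 difference was 0.43 (SE 0.14, 95% interval 0.11 to 0.75, limma adjusted p = 0.273). TRIM55, which encodes MuRF2, a partner of titin, had 7.40, 7.54 and 11.2 FPKM in Wagyu, against 5.61, 5.90 and 7.19 FPKM in Chinese Red Steppes. Again the Wagyu libraries were higher, with a gap between WC616 and RC6 smaller than the spread within either breed. The log2 difference of TRIM55 was 0.41 (SE 0.19, 95% interval -0.04 to 0.86, limma adjusted p = 0.379), and 0.23 without WC921.

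TRIM32 ubiquitinates actin and desmin, and its loss in humans causes a limb-girdle muscular dystrophy. It was the only one of the 10 genes lower in Wagyu without overlap. It had 2.04, 2.51 and 2.50 FPKM in Wagyu, against 3.97, 4.73 and 4.69 FPKM in Chinese Red Steppes, from 101, 127 and 126 reads in Wagyu and 199, 232 and 226 reads in Chinese Red Steppes. The 2 breeds formed tight and separate groups. The mean was 2.35 ± 0.269 FPKM in Wagyu and 4.47 ± 0.428 FPKM in Chinese Red Steppes (n = 3 each, SD), so that Chinese Red Steppes had 1.90 times the Wagyu level. The limma difference was -0.71 (SE 0.15, 95% interval -1.07 to -0.35, adjusted p = 0.173) on the log2(FPKM + 1) scale, which understates the change of a gene at this level. DESeq2 on the recovered reads gave -0.95 (SE 0.24, adjusted p = 0.0076), past the threshold, and edgeR gave -0.96 (adjusted p = 0.120), not past it. Over all planned settings the adjusted p lay between 0.0076 and 0.443. With DESeq2, leaving out WC719 or RC5 ended the call (adjusted p = 0.0630 and 0.0811), and with any other library left out it stayed between 0.00767 and 0.0435. In the RefSeq annotation of a later assembly (ARS-UCD2.0) TRIM32 lies within ASTN2, and no source used here says whether the counting used strand, so reads of the 2 genes may not be separate.

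FBXO40 is a muscle-specific F-box protein that targets the insulin receptor substrate IRS1. It had 23.6, 23.0 and 16.3 FPKM in Wagyu, against 18.1, 22.7 and 9.01 FPKM in Chinese Red Steppes. The breeds overlapped, and RC6 was the lowest of the 6. The log2 difference of 0.39 (SE 0.32, 95% interval -0.35 to 1.13, limma adjusted p = 0.600) was 0.03 without RC6. MUL1, a ligase of the outer mitochondrial membrane that acts on the fusion protein mitofusin 2, had 24.1, 28.6 and 22.5 FPKM in Wagyu, against 24.9, 18.9 and 35.9 FPKM in Chinese Red Steppes. Here RC6, the library with most slow fibre and mitochondrial RNA, was the highest. The difference of MUL1 was -0.04 (SE 0.23, 95% interval -0.58 to 0.50, limma adjusted p = 0.954), and it was 0.19 without RC6 and 0.03 without WC921.

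**Figure D2:**
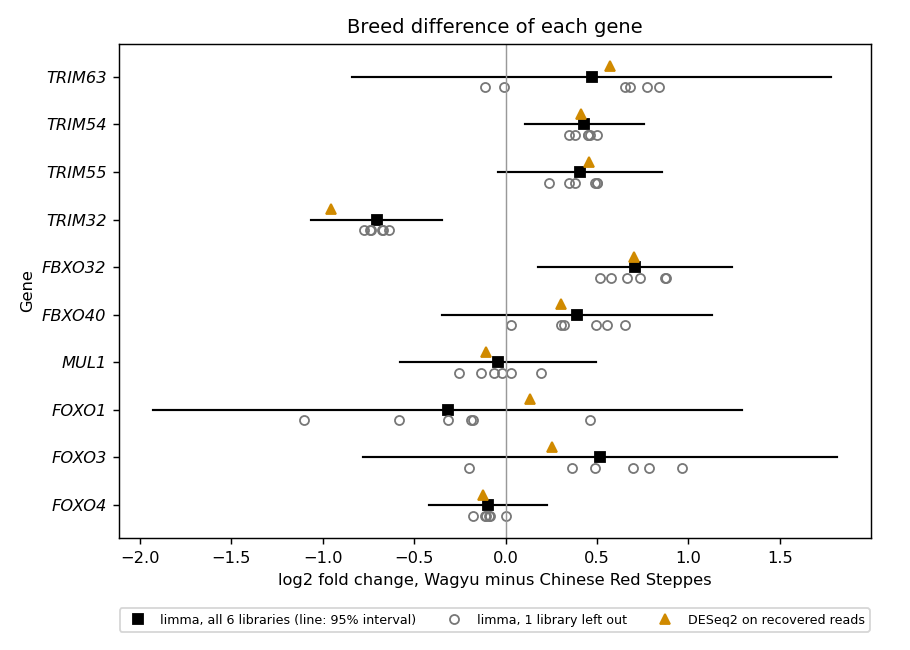
Difference in log2(FPKM + 1), Wagyu minus Chinese Red Steppes, for each ligase and FOXO gene, as squares with 95% intervals from limma (n = 3 each), with circles for limma with 1 library left out and triangles for the log2 fold change of DESeq2 on recovered reads. The intervals of TRIM54, FBXO32 and TRIM32 do not include 0, but no gene passed the adjusted threshold with limma, TRIM32 passed it with DESeq2, and FOXO1, TRIM63 and FOXO3 have the widest intervals.

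The 3 FOXO genes encode related forkhead factors that bind the same DNA motif, and they behaved unlike one another. FOXO1, the family member most tied to fasting and insulin signalling, had 1.95, 7.64 and 24.8 FPKM in Wagyu, against 12.2, 11.9 and 6.49 FPKM in Chinese Red Steppes. The 3 Wagyu libraries enclosed the whole Chinese Red Steppes range. The highest Wagyu library had 12.7 times the lowest, from 751 reads in WC921 against 58 in WC616, and the log2 SD among Wagyu, 1.56, was above that of 99.8% of genes tested. The means were 11.5 ± 11.9 FPKM in Wagyu and 10.2 ± 3.20 FPKM in Chinese Red Steppes (n = 3 each, SD). The log2 difference was -0.32 (SE 0.69, 95% interval -1.93 to 1.29, limma adjusted p = 0.862), so the mean FPKM and the mean log2 value differed in sign, and edgeR and DESeq2 both gave 0.13. The log2 difference was 0.46 without WC616 and -1.10 without WC921.

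FOXO3, which can on its own switch on FBXO32 in mouse muscle cells, had 4.50, 6.36 and 7.70 FPKM in Wagyu, against 6.14, 8.19 and 0.834 FPKM in Chinese Red Steppes. Here the outlying library was RC6, with 26 reads, against 199 in RC4 and 260 in RC5, and the other 5 libraries lay between 4.50 and 8.19 FPKM. The log2 difference was 0.52 (SE 0.56, 95% interval -0.78 to 1.81, limma adjusted p = 0.702), and without RC6 it was -0.20. FOXO4 had 26.8, 34.6 and 31.4 FPKM in Wagyu, against 32.3, 33.4 and 33.2 FPKM in Chinese Red Steppes. The libraries lay close together in both breeds, and among Chinese Red Steppes its log2 SD of 0.026 was above that of only 0.991% of genes tested. The difference was -0.10 (SE 0.14, 95% interval -0.42 to 0.23, limma adjusted p = 0.786). FOXO6, another family member, looked up after the values of the others were seen, had 10.6, 10.6 and 11.6 FPKM in Wagyu, against 16.6, 4.89 and 10.6 FPKM in Chinese Red Steppes, with a difference of 0.16 (SE 0.36, limma adjusted p = 0.861).

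Summed over FOXO1, FOXO3 and FOXO4, the libraries held 33.2, 48.6 and 63.9 FPKM in Wagyu, against 50.5, 53.5 and 40.5 FPKM in Chinese Red Steppes. FOXO4 had the largest share of this sum in every library, from 49.1% in WC921 to 81.9% in RC6. FOXO1 made up 5.87, 15.7 and 38.8% in Wagyu, against 24.0, 22.3 and 16.0% in Chinese Red Steppes. The breed means of the FOXO1 share were nearly equal, 20.1 ± 16.9% in Wagyu and 20.8 ± 4.21% in Chinese Red Steppes (n = 3 each, SD, two-sided exact permutation p = 0.9), and the spread was wider in Wagyu. FOXO3 made up 12.1 to 15.3% in every library other than RC6, where it made up 2.06%.

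**Figure D3:**
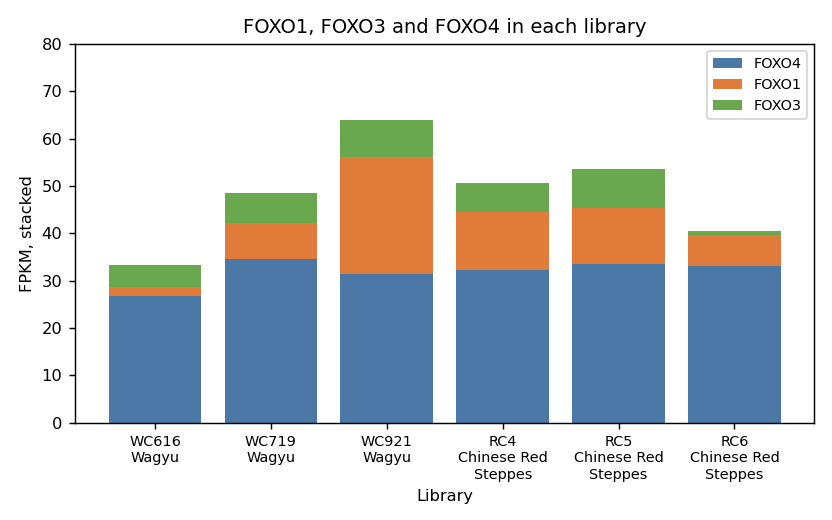
Summed FPKM of FOXO1, FOXO3 and FOXO4 in each library, Wagyu on the left and Chinese Red Steppes on the right, stacked by gene. The FOXO4 part has the largest share in all 6 libraries, FOXO1 differs most between WC616 (1.95 FPKM) and WC921 (24.8 FPKM), and FOXO3 is 0.834 FPKM in RC6.

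The spread among animals of a breed thus differed widely between these genes. The median gene had a log2 SD of 0.188 among Wagyu and 0.228 among Chinese Red Steppes, and TRIM63, FOXO1 in Wagyu, and FOXO3 and FBXO40 in Chinese Red Steppes lay far above it, whereas TRIM54, TRIM32 and FOXO4 lay below it in both breeds. WC921 was the highest Wagyu library for 6 of the 10 genes (TRIM63, TRIM54, TRIM55, FBXO32, FOXO1 and FOXO3), as it was for 32.7% of the 9971 genes whose highest and lowest Wagyu library could be named, and WC616 was the lowest for 8 of the 10, as it was for 47.2%. Among Chinese Red Steppes, RC6 was the lowest for FBXO32, FBXO40, FOXO1 and FOXO3 and the highest for TRIM63, TRIM55 and MUL1, 4 and 3 of the 10 genes, where it was the lowest for 33.9% and the highest for 39.8% of 9982 genes. The labels give no feeding state, slaughter time or sampling delay per animal.

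**Figure D4:**
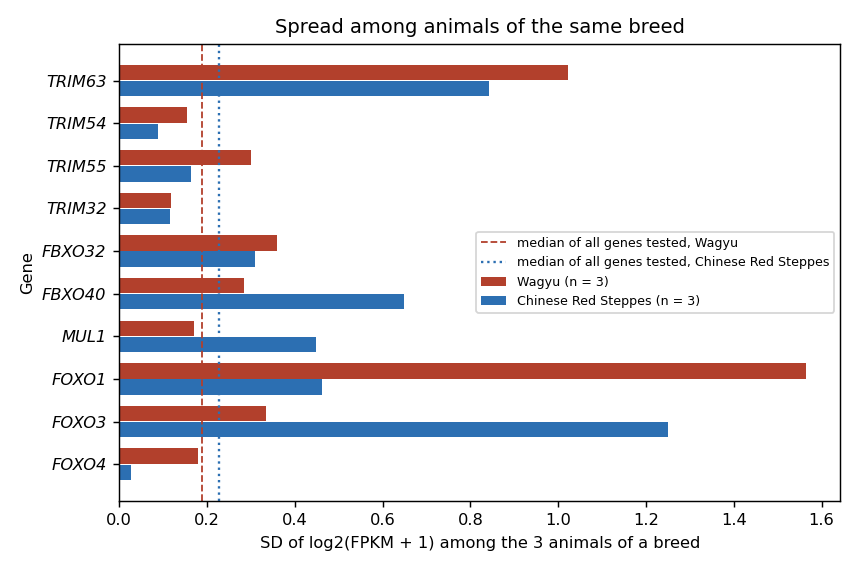
SD of log2(FPKM + 1) among the 3 libraries of a breed for each ligase and FOXO gene, Wagyu bars before Chinese Red Steppes bars, with a line at the median of the 9990 genes tested (0.188 in Wagyu and 0.228 in Chinese Red Steppes). FOXO1 in Wagyu (1.56), FOXO3 in Chinese Red Steppes (1.25) and TRIM63 in both breeds stand highest.

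In order of mean FPKM over the 6 libraries, a scale that allows for gene length, the genes ran TRIM54 (324), TRIM63 (143), FBXO32 (43.0), FOXO4 (31.9), MUL1 (25.8), FBXO40 (18.8), FOXO1 (10.8), TRIM55 (7.47), FOXO3 (5.62) and TRIM32 (3.41). The full ranges of every pair of neighbours in this order overlapped. Within libraries, however, TRIM54 was above TRIM63, and TRIM63 above FBXO32, in 6 of 6, and FOXO1 was above TRIM55 in 4 of 6. The order also rests on the gene lengths the authors used, which the recovered reads put between 1133 bases for FBXO32 and 3456 bases for FOXO4.

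The genes with profiles most like FBXO32, by root mean square difference of the centred log2(FPKM + 1) values over the 6 libraries, were MYO18A (0.058), C1orf198 (0.080) and M-RIP (0.083), where the SD of the FBXO32 profile itself was 0.447. MYO18A, an unconventional myosin, had 107, 125 and 163 FPKM in Wagyu, against 94.8, 74.4 and 70.1 FPKM in Chinese Red Steppes. For TRIM63 the nearest genes were an unnamed gene, ENSBTAG00000048081 (0.276), FOSL2 (0.315), which encodes a subunit of the AP-1 transcription factor, and SLC25A33 (0.315), a mitochondrial nucleotide carrier, against a profile SD of 0.800. For FOXO1 they were INHBB (0.288), a subunit of activin B, SLC43A2 (0.347), an amino acid transporter, and FOS (0.386), another AP-1 subunit, against a profile SD of 0.955. FOS had 36.3, 72.3 and 142 FPKM in Wagyu, against 116, 121 and 47.4 FPKM in Chinese Red Steppes, low in WC616 and RC6 and high in WC921 as FOXO1 was. These are likenesses over 6 libraries, picked from all genes tested.

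The rest of the pathway was read from 9 lists of 129 genes, of which 118 were tested. With limma none of the 118 passed, and at an unadjusted p under 0.05, 8 were higher and 7 lower in Wagyu, where 8.64% and 5.87% of all genes tested were. In 9 genes all Wagyu libraries were above, and in 11 below, all Chinese Red Steppes libraries, as in 11.4% and 9.16% of all genes tested. Of 124 with an adjusted p, edgeR called none and DESeq2 called 3, SMURF1, IL6R and TNFRSF12A, all higher in Wagyu, where it called 2.0% of all genes. These counts over all 9 lists lay near or below those shares. Beside the splits of single lists below, 5362 of all 9990 genes tested were above 0 and 4628 below.

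FBXO32 and FBXO40 work through an SCF complex of SKP1, CUL1 and RBX1, with NEDD8 and CAND1 as its regulators. Of these 5 genes 3 were above 0 and 2 below, with a median log2 difference of 0.00, and none was without overlap. The scaffold CUL1 had 30.5, 38.7 and 41.2 FPKM in Wagyu, against 22.6, 31.3 and 28.6 FPKM in Chinese Red Steppes, a log2 difference of 0.41 (limma adjusted p = 0.346). RBX1, which recruits the ubiquitin-charged enzyme, differed by -0.17 (limma adjusted p = 0.600) and CAND1, which exchanges F-box proteins, by 0.14 (limma adjusted p = 0.774), and by -0.01 without RC6.

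Among 16 other ubiquitin ligases of muscle, 14 were above 0 and 2 below, with a median of 0.15. Those below 0, named after their values were seen, were FBXL22 (difference -0.93) and TRIM72 (difference -0.001). Of the 16, 3 were higher in Wagyu without overlap (SMURF1, RNF123 and HUWE1), as were 11.4% of all genes tested. Without RC6 the split was 9 above and 7 below, and the median was 0.31 without WC616 and 0.07 without WC719. SMURF1, a ligase for SMAD and BMP receptor proteins, had 2.29, 3.54 and 3.70 FPKM in Wagyu, against 1.22, 0.671 and 1.69 FPKM in Chinese Red Steppes. Every Wagyu library was above every Chinese Red Steppes library, with a log2 difference of 0.94 (SE 0.23, limma adjusted p = 0.201), and DESeq2 gave 1.38 (SE 0.38, adjusted p = 0.0195), the lowest of a range up to 0.527 over the settings. RNF123, a ligase for the cell cycle inhibitor CDKN1B, had 51.6, 58.0 and 62.9 FPKM in Wagyu, against 43.9, 44.0 and 37.0 FPKM in Chinese Red Steppes, a difference of 0.46 (SE 0.14, limma adjusted p = 0.265). The mRNA of CDKN1B lay the other way, and the turnover of its protein was not measured. CDKN1B had 8.17, 9.98 and 8.96 FPKM in Wagyu, against 11.1, 15.8 and 11.8 FPKM in Chinese Red Steppes. The CDKN1B difference was -0.46 (limma adjusted p = 0.311). MDM2, the ligase for p53, differed by 0.47 (limma adjusted p = 0.350), and HUWE1, named after its values were seen, by a smaller amount, with 7.63, 7.28 and 7.98 FPKM in Wagyu, against 7.04, 5.81 and 4.48 FPKM in Chinese Red Steppes.

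Of 16 genes for ubiquitin itself, its conjugating enzymes and deubiquitinases, 10 were above 0 and 6 below, with a median of 0.02. The split was 5 above and 11 below without RC4, and 7 above and 9 below without RC6 and without WC921, with medians from -0.03 to -0.02. UBE2B, the conjugating enzyme long linked to muscle wasting in rodents, had 145, 147 and 139 FPKM in Wagyu, against 172, 222 and 226 FPKM in Chinese Red Steppes. All Wagyu libraries were lower and lay close together, with a log2 difference of -0.51 (SE 0.15, limma adjusted p = 0.240). UBA1, the enzyme that activates ubiquitin, differed by 0.21 (limma adjusted p = 0.519).

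FOXO factors also act on autophagy genes in mouse muscle. Of 14 autophagy genes 3 were above 0 and 11 below, with a median of -0.30. Of the 14, 4 were lower in Wagyu without overlap, as were 9.16% of all genes tested. The median was -0.13 without RC6 and -0.20 without RC5, with 4 genes above 0 and 10 below in both. MAP1LC3B, the autophagosome protein LC3B, had 28.6, 31.7 and 31.5 FPKM in Wagyu, against 35.3, 47.9 and 54.0 FPKM in Chinese Red Steppes. Its Wagyu libraries were lower and tightly grouped, with a log2 difference of -0.54 (SE 0.18, limma adjusted p = 0.273). BECN1, which starts the autophagosome with PIK3C3, had 15.7, 16.7 and 16.4 FPKM in Wagyu, against 18.2, 24.9 and 19.5 FPKM in Chinese Red Steppes (difference -0.33, limma adjusted p = 0.370). The others without overlap, named after their values were seen, were the mitophagy receptor BNIP3 (difference -0.40) and the cargo receptor SQSTM1 (difference -0.28). TFEB, the master regulator of lysosome genes, lay the other way, with 34.4, 46.0 and 51.2 FPKM in Wagyu, against 36.2, 24.4 and 33.0 FPKM in Chinese Red Steppes (difference 0.48, limma adjusted p = 0.344).

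Of 17 other genes that FOXO factors are known to act on, 5 were above 0 and 12 below, with a median of -0.10, and only CDKN1B was without overlap. The median was -0.30 without RC4, -0.19 without WC719 and without RC5, -0.17 without WC921, -0.06 without RC6 and -0.03 without WC616. The cell cycle inhibitor CDKN1A had 16.1, 38.6 and 49.0 FPKM in Wagyu, against 9.16, 13.2 and 39.0 FPKM in Chinese Red Steppes. The lowest library of both breeds was far under the highest, and the difference was 0.85 (SE 0.56, limma adjusted p = 0.516), between 0.44 without RC4 and 1.43 without RC6. SESN1, an inhibitor of mTORC1, had 14.6, 13.6 and 17.6 FPKM in Wagyu, against 11.0, 31.0 and 37.1 FPKM in Chinese Red Steppes, a difference of -0.60 (limma adjusted p = 0.520), between -1.11 without RC4 and -0.28 without RC6.

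**Figure D5:**
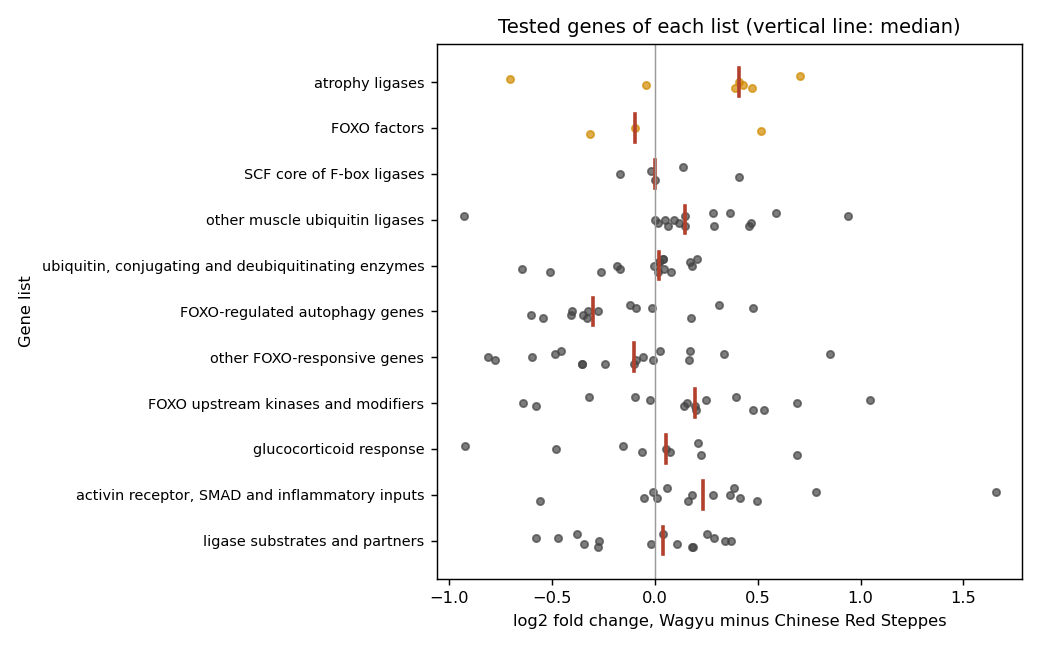
Difference in log2(FPKM + 1), Wagyu minus Chinese Red Steppes, of each gene (points) in the ligase and FOXO sets and the 9 pathway lists, with the median of each as a bar. The medians run from -0.30 for autophagy genes to 0.41 for the 7 ligases, and 0 of the genes plotted passed limma at an adjusted p of 0.05.

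Upstream of the FOXO factors, 10 of 15 genes were above 0 and 5 below, with a median of 0.20 that was 0.36 without WC616 and 0.06 without RC6. Components of insulin signalling had differences of either sign. PIK3R1, the regulatory subunit of PI3K, had 7.80, 5.42 and 7.52 FPKM in Wagyu, against 9.10, 10.8 and 14.4 FPKM in Chinese Red Steppes, without overlap (difference -0.64, SE 0.21, limma adjusted p = 0.276). IRS1, which links the insulin receptor to PI3K and is a substrate of FBXO40, had 17.6, 18.3 and 14.6 FPKM in Wagyu, against 36.7, 18.1 and 24.9 FPKM in Chinese Red Steppes (difference -0.58, limma adjusted p = 0.341). For IRS1 the breeds overlapped, with RC5 inside the Wagyu range, and the difference was -0.33 without RC4. PDPK1, the kinase that activates AKT, had 9.53, 13.2 and 13.5 FPKM in Wagyu, against 8.86, 7.82 and 1.84 FPKM in Chinese Red Steppes (difference 1.05, SE 0.45, limma adjusted p = 0.343). PDPK1 was, like FOXO3, lowest in RC6, with 51 reads there against 256 in RC4, and without RC6 its difference was 0.47. The deacetylase SIRT2, named after its values were seen, was also higher without overlap, with 102, 93.0 and 114 FPKM in Wagyu, against 86.8, 84.8 and 54.0 FPKM in Chinese Red Steppes.

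Glucocorticoids raise FBXO32 and TRIM63 in several mammals. Of 9 glucocorticoid-responsive genes tested, 5 were above 0 and 4 below, with a median of 0.05, and this median was -0.29 without WC921 and -0.12 without RC6, with 2 above and 7 below in both. Relative to each gene's mean over the libraries, the median gene of the list lay at -0.39, -0.19 and 0.43 on the log2 scale among Wagyu, against -0.09, 0.26 and -0.07 among Chinese Red Steppes. By this median WC921, the library with most TRIM63 and FOXO1 mRNA, was also the highest and WC616 the lowest. WC616 was also lowest for FOXO1, whereas TRIM63 was lowest in RC4. Among Chinese Red Steppes the list median was highest in RC5, TRIM63 in RC6 and FOXO1 in RC4. Of the genes named next, MT2A rose from WC616 to WC921 within Wagyu but had its highest value in RC4. Within Wagyu, DDIT4 was highest in WC921 and lowest in WC719, and SGK1 was highest in WC616. The part of glucocorticoids in the spread of the ligases was not tested. The metallothionein MT2A had 33.7, 38.9 and 64.2 FPKM in Wagyu, against 112, 64.4 and 81.9 FPKM in Chinese Red Steppes, with WC921 just under RC5 (difference -0.92, SE 0.28, limma adjusted p = 0.265). SGK1, a kinase that phosphorylates FOXO3, differed by 0.69 (limma adjusted p = 0.395) and DDIT4, an inhibitor of mTORC1, by -0.48 (limma adjusted p = 0.561).

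Of 14 genes for activin receptors, SMADs and inflammatory inputs, 11 were above 0 and 3 below, with a median of 0.23 that stayed between 0.22 and 0.25 with any library left out. The 14 include the ligand myostatin (MSTN) and FST, named after their values were seen, which differed by -0.56 and 0.36. IL6R, the interleukin-6 receptor, had 13.2, 12.8 and 20.4 FPKM in Wagyu, against 8.51, 7.97 and 8.63 FPKM in Chinese Red Steppes. The separation was clear, with a difference of 0.78 (SE 0.19, limma adjusted p = 0.200), and DESeq2 gave 0.86 (SE 0.25, adjusted p = 0.0334, with adjusted p-values up to 0.485 in other settings). TNFRSF12A, the receptor of the atrophy cytokine TWEAK, had 38.6, 131 and 97.2 FPKM in Wagyu, against 13.7, 41.9 and 24.9 FPKM in Chinese Red Steppes. RC5 lay just above WC616, and the difference was 1.66 (SE 0.51, limma adjusted p = 0.265), against 1.69 (SE 0.44, adjusted p = 0.0116, up to 0.571 in other settings) with DESeq2. SMAD3, which carries myostatin and activin signals, had 7.36, 6.94 and 6.48 FPKM in Wagyu, against 5.70, 4.60 and 3.72 FPKM in Chinese Red Steppes, again without overlap (difference 0.50, SE 0.17, limma adjusted p = 0.293).

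Of 15 substrates and partners of the ligases, 8 were above 0 and 7 below, with a median of 0.04 that was -0.13 without RC6. These are mRNA levels, and the ubiquitination and turnover of the proteins were not measured. Desmin (DES), an intermediate filament protein and substrate of TRIM32, had 7693, 6932 and 8576 FPKM in Wagyu, against 6915, 5874 and 5200 FPKM in Chinese Red Steppes. Every Wagyu library was higher, though WC719 only just, and the difference was 0.37 (SE 0.19, limma adjusted p = 0.417). Skeletal actin (ACTA1), another substrate of TRIM32 and named after its values were seen, lay the other way without overlap, with 36258, 32327 and 31588 FPKM in Wagyu, against 41181, 43206 and 45751 FPKM in Chinese Red Steppes. MYBPC1, the slow isoform of a thick filament protein that TRIM63 ubiquitinates, had 1003, 1121 and 914 FPKM in Wagyu, against 1190, 1338 and 1725 FPKM in Chinese Red Steppes, with its highest value in RC6 (difference -0.47, SE 0.18, limma adjusted p = 0.321).

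Fat cell markers summed to 13.9, 12.9 and 5.92 FPKM in Wagyu, against 4.66, 13.2 and 14.4 FPKM in Chinese Red Steppes, and 3 of the 7 reached a mean of 1 FPKM. WC921 and RC4 were low, and the breeds overlapped. The 5 fibroblast markers had their highest sum, 167 FPKM, in WC616 and their lowest, 55.1 FPKM, in RC6, all 5 with a difference above 0 and a median of 0.51 that was 0.10 without RC6. None of the markers of fat cells or fibroblasts passed limma, edgeR or DESeq2, and 1 fibroblast marker, LUM, had an unadjusted p under 0.05. Their part in the values of the ligases was not tested.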

How the data were processed

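Members were the rows whose gene name equals 1 of the 10 symbols. The members, the pathway lists and the tests were chosen with earlier results of these data known. Named beside the members are, per list, the 3 tested genes with the smallest unadjusted p, and the 3 genes nearest in profile to FBXO32, TRIM63 and FOXO1. Genes named otherwise are said to be so. The values of 1 gene that this rule picks are not reported here.

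The authors deposited FPKM values of 21972 genes for each of the 6 libraries, after removal of adaptors and low-quality reads and without pooling. The authors also deposited raw read counts of 205 genes with a scaled signal per breed, a log2 fold change and a corrected p-value, all of which were left out as results. HISAT2 and the build UMD3.1 come from the processing notes of the submitters, TopHat, Bowtie and RPKM from the study's methods, and which of them gave the FPKM values could not be settled. No source used here states how strand or shared reads were handled.

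The deposited counts were used to find the reads behind 1 FPKM unit in each library. The reads came out whole for 16770 of 16770 genes above 0 (within 1e-06 of the highest read count) and equalled the deposited counts for 203 of 205 genes. A chi-square test of recovered reads put every pair of libraries beyond sampling noise (26.6 to 179 per degree of freedom), and all 6 counted as separate replicates.

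The breed comparison used limma (3.58.1, R 4.3.3) with a mean-variance trend on log2(FPKM + 1) for 9990 genes with a mean of at least 1 FPKM, two-sided, with Benjamini-Hochberg adjustment at 0.05. A fold change on this scale understates that of low genes. A count test had been planned as the main test only if counts covered all genes, so edgeR (4.0.16, quasi-likelihood) and DESeq2 (1.42.0) on the recovered reads served as alternatives. The others were 2 pseudocounts, 2 filters, 3 scalings, 2 limma settings and the omission of each library. The omission of each library for DESeq2 on TRIM32 and for list medians was added after the data were seen. The scripts were tested on simulated data. Ratios and shares were compared by exact permutation (Python 3.11.15, scipy 1.17.1). Symbols of all 10 members were found in RefSeq ARS-UCD2.0, another build, so no coordinates are given.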

Additional observations from a re-analysis of the deposited data

How the results depend on the processing

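Of the 9990 genes, 2 passed limma. The count was 1 with a pseudocount of 0.5 FPKM and with one of 0.1 FPKM, 0 without a filter and 0 with a mean of at least 5 FPKM, 4 with libraries scaled to an equal sum without mitochondrial genes, 4 without the trend, 4 with robust shrinkage, 8 with edgeR and 238 with DESeq2. It lay between 0 and 3 with 1 library left out. At an unadjusted p under 0.05, 863 genes were higher and 586 lower in Wagyu, against 688 and 749 after quantile normalization, 751 and 705 after median ratio scaling, and 816 and 828 with edgeR. None of the 10 genes reversed under a scaling applied to the FPKM values, and FOXO1 was 0.13 with edgeR and 0.13 with DESeq2, against -0.32 with limma. With 1 library left out the log2 difference ranged from -0.11 to 0.84 for TRIM63, from -0.25 to 0.19 for MUL1, from -1.10 to 0.46 for FOXO1, from -0.20 to 0.96 for FOXO3 and from -0.18 to 0.000903 for FOXO4. Without a library the FBXO32 to TRIM63 log2 ratio difference ranged from -0.19 to 0.91, the FOXO1 share difference from -9.99 to 6.49 percentage points, and the median of the 10 genes from 0.11 to 0.48. TRIM54, TRIM55, FBXO32 and FBXO40 stayed above 0, and TRIM32 below 0, in every setting that gave a value. TRIM32 had no value at a mean of at least 5 FPKM. The causes of these shifts were not tested. No paired analysis was possible because the breeds are separate animals and the labels give no pairing. With 3 libraries a breed, every comparison is limited in number.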
